A study of Mus musculus with 8 samples.

Results

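Macrophage genes of complement, scavenging and the oxidative burst were followed in sorted mouse haematopoietic progenitors after transduction with KLF7. They were the 3 chains of C1q (C1qa, C1qb and C1qc), the receptors and membrane proteins Mrc1, Cd68, Cd14, Csf1r and Adgre1, and the effectors Mpeg1 and Cybb. Members were taken by symbol from probe sets that carry a single gene symbol in the platform's annotation, and all 10 were measured among 19938 genes. Each of them had 1 such probe set, so no choice between probe sets was needed. The study held 8 arrays of C57Bl/6 bone marrow: 4 of cells that received a lentivirus with the transcription factor KLF7 and 4 of cells that received a control virus. In both groups c-Kit+ cells were transduced, the Lin- c-Kit+ Sca-1+ (KLS) fraction was sorted after 72 hours, and the RNA was amplified before labelling with biotin. The sources used here give neither the mice's age, nor the promoter in the vector, nor the content of the control virus. They do not say either whether the arrays stand for separate cultures or mice, so each p-value measures the spread among these 8 arrays alone, and that spread may be technical.

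C1q is the recognition molecule of the classical complement pathway, assembled from A, B and C chains and made mostly by macrophages and dendritic cells. Mature macrophages also carry scavenging and pattern recognition receptors, depend on the CSF1 receptor for survival, and kill ingested microbes with pore-forming proteins and with superoxide from the NADPH oxidase. A lineage-negative gate is meant to remove mature myeloid cells, and stem and early progenitor cells carry little of this programme. In RNA from a sorted population, fewer cells of a type and less RNA per cell cannot be told apart.

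Promoters are shown for the C1q chains whose levels moved together over the arrays and for the members with the largest differences between groups that have an entry in RefSeq's promoter table (GRCm38.p6). The table held 6 of the 10 members. Each sequence is the 250 bases before the gene's start, 5′ to 3′ on the gene's strand: C1qb at chr4:136886201-136886450 on the minus strand, C1qc at chr4:136892915-136893164 on the minus strand, Mpeg1 at chr19:12460520-12460769 on the plus strand and Cybb at chrX:9469325-9469574 on the minus strand. Capitals mark CACCC, the core of motifs that KLF factors bind, and GAGGAA, a core of motifs that ETS factors such as PU.1 bind, each searched on both strands (GGGTG and TTCCTC on the other).
C1qb: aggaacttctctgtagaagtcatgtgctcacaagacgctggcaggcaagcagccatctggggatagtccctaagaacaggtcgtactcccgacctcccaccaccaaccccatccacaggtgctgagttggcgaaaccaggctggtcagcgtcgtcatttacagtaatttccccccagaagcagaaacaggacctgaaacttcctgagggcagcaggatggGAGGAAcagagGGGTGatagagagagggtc
C1qc: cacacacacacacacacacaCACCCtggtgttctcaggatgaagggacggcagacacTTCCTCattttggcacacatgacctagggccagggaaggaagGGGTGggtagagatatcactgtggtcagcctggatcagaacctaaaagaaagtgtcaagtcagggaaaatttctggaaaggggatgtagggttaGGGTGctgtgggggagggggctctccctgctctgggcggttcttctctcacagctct
Mpeg1: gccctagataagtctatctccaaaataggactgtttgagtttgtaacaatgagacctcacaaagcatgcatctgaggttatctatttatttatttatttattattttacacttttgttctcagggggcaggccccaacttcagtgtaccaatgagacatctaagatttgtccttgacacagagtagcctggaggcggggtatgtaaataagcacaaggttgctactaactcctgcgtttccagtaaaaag
Cybb: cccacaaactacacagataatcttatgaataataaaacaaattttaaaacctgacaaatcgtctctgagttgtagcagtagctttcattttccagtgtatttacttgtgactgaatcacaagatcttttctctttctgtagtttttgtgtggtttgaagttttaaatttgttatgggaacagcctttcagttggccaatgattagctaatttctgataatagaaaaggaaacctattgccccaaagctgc
The C1qc window held CACCC at 3 places and the C1qb window at 1, with GAGGAA at 1 place in each. Neither motif lay in the windows of Mpeg1 and Cybb, which says only that these letters are not in these 250 bases. Of the 6 windows, 3 held CACCC and 4 held GAGGAA, against 52% and 23.3% of all 32851 promoter windows of the same length. A match is a description of letters, not of binding. In the RefSeq table the genes lie next to each other in the order C1qb, C1qc, C1qa, with no other gene between them.

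Depth has no meaning for arrays, and their number limits the precision of each difference. Median intensities lay between 46.2 and 54.1, and arrays correlated with each other across genes at 0.936 to 0.982. Klf7 itself averaged 10.80 ± 0.55 (SD, n = 4) in log2 intensity with the KLF7 virus and 9.04 ± 1.00 (SD, n = 4) with the control virus (exact two-sided permutation p = 0.0571). KLF7 array 2 (10.19) lay below control array 2 (10.28), so the groups are named here by their labels. Kit, which defines the sorted cells, lay between 9.57 and 10.52 on the 6 arrays numbered 1 to 3 but at 7.85 on KLF7 array 4 and 8.33 on control array 4. Ly6a, which encodes Sca-1, is not analysed here.

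The 10 genes did not share a direction between the groups. Their median difference, KLF7 minus control, was 0.07 log2 against 0.0019 over all genes, with 5 members higher and 5 lower. Single arrays turned the sign of that median, which was -0.17 without control array 2, 0.41 without KLF7 array 3 and 0.44 without control array 1. In limma with Benjamini-Hochberg adjustment over all genes, 0 of the 10 had an adjusted p under 0.05, as had 0% of the 19938 genes. At an unadjusted p under 0.05 there were 2 members, Adgre1 and Mpeg1, both higher on the KLF7 arrays. Of all genes 8.21% passed that level, 4.65% higher and 3.56% lower. The 4 arrays of one group lay wholly apart from the other 4 for 0 of the 10, and for 5.22% of all genes. The members differed more between arrays of the same group than most genes did, with a median within-group SD of 0.72 log2 against 0.24 over all genes. For 9 of the 10, C1qa being the exception at 65.9%, between 84.0% and 99.5% of all genes had a smaller SD. These 9 lay in the brighter 50% of genes, and the spread was not compared with genes of like intensity.

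**Figure D1:**
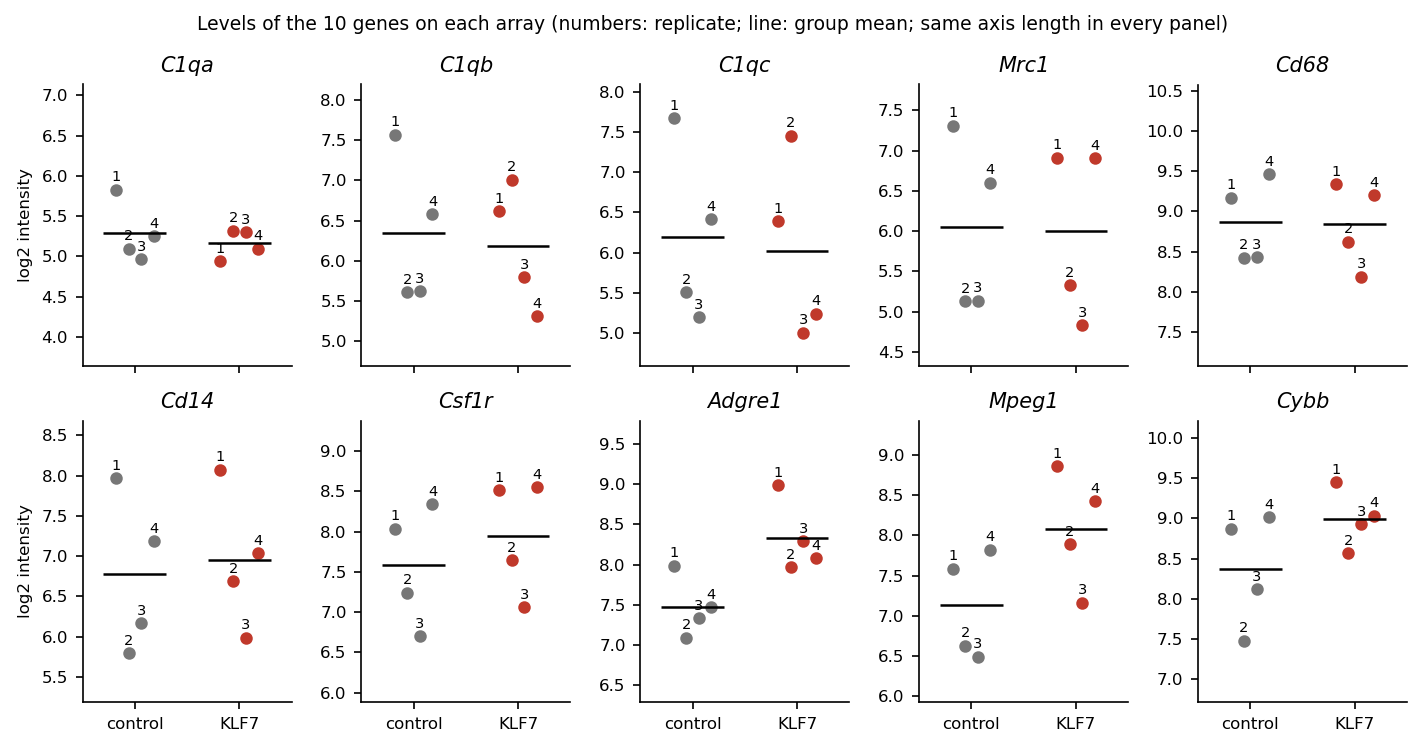
Log2 intensity of each of the 10 genes on the 8 arrays, grey for control and red for KLF7, with the replicate number beside each point and a line at the group mean; every panel spans the same length of axis. Mrc1, Cd68, Cd14 and Csf1r separate the arrays numbered 1 and 4 from those numbered 2 and 3 over all 8 arrays, and Mpeg1 and Cybb do so within each group. Adgre1, Mpeg1 and Cybb lie higher on most KLF7 arrays.

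The C1q chains, which start the classical pathway, showed no difference larger than their spread. C1qb, the B chain, had log2 intensities of 6.61, 7.01, 5.79 and 5.31 on KLF7 arrays 1 to 4 and 7.57, 5.61, 5.63 and 6.58 on control arrays 1 to 4. C1qc, the C chain, had 6.39, 7.45, 5.01 and 5.24 on the KLF7 arrays and 7.67, 5.51, 5.20 and 6.41 on the controls. Control array 1 was the highest for both chains, followed by KLF7 array 2, and the groups overlapped almost entirely. C1qa, the A chain, had 4.94, 5.32, 5.30 and 5.09 on the KLF7 arrays and 5.83, 5.10, 4.96 and 5.25 on the controls. Its levels stayed within a narrower range than those of the other chains, again with control array 1 on top. Alone of the members, C1qa lay in the dimmer 50% of genes. Whether its low level narrowed that range was not tested.

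The differences between groups were -0.12 for C1qa (SE 0.19, 95% interval -0.54 to 0.30), -0.16 for C1qb (SE 0.47, -1.21 to 0.88) and -0.17 for C1qc (SE 0.61, -1.52 to 1.17) on the log2 scale. The adjusted p in limma was 0.944 for C1qa, 0.975 for C1qb and 0.978 for C1qc. The interval of C1qb includes a change of 2-fold downwards and that of C1qc one of 2-fold in either direction. Without control array 1 all 3 differences turned positive, at 0.06 for C1qa, 0.24 for C1qb and 0.32 for C1qc.

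Over the 8 arrays the B and C chains went together. Pearson's r between C1qb and C1qc was 0.957 (exact permutation p = 0.00099, n = 8 arrays), and Spearman's rho was 0.762 (exact permutation p = 0.0368). Adjusted by Benjamini-Hochberg over the 3 pairs of chains, these p-values were 0.0030 and 0.110 (exact permutation). Without the 2 arrays farthest from the median of C1qb, control 1 and KLF7 4, r was 0.948. Taken about the group means it was 0.957, and it was 0.926 over the KLF7 arrays and 0.992 over the controls. C1qa followed the others less closely, with r = 0.699 to C1qb (exact permutation p = 0.0431 and 0.0646 adjusted, n = 8) and 0.650 to C1qc (exact permutation p = 0.0696, n = 8). Their rho values were 0.548 and 0.500. Its agreement with them lay in the control arrays (r = 0.964 and 0.982) and was near 0 in the KLF7 arrays (0.0911 and 0.0902), a difference that was not tested.

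Scavenging and recognition receptors formed the next group. Mrc1, the mannose receptor, had log2 intensities of 6.91, 5.33, 4.83 and 6.91 on KLF7 arrays 1 to 4 and 7.31, 5.13, 5.14 and 6.60 on control arrays 1 to 4. Cd68, a lysosomal glycoprotein of phagocytes, had 9.34, 8.63, 8.19 and 9.20 on the KLF7 arrays and 9.17, 8.42, 8.43 and 9.46 on the controls. For both genes every array numbered 1 or 4 lay above every array numbered 2 or 3, whatever the virus. Cd14, the coreceptor that hands lipopolysaccharide to TLR4, had 8.07, 6.69, 5.99 and 7.04 on the KLF7 arrays and 7.97, 5.79, 6.17 and 7.19 on the controls. It kept the same order of arrays, with the arrays numbered 1 highest in both groups.

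Against that spread the group differences were small. Mrc1 differed by -0.05 (SE 0.59, 95% interval -1.36 to 1.26), Cd68 by -0.03 (SE 0.32, -0.74 to 0.67) and Cd14 by 0.17 (SE 0.51, -0.97 to 1.30) on the log2 scale. The adjusted p was 0.995 for Mrc1, 0.995 for Cd68 and 0.977 for Cd14 in limma. Within the control group alone Mrc1 ranged from 5.13 to 7.31, whereas its group means lay at 6.00 and 6.05. The sign of these differences hung on single arrays: Mrc1 went from -0.36 without KLF7 array 1 to 0.37 without control array 1. Cd14 went from -0.21 to 0.56 in the same settings, and Cd68 from -0.20 without KLF7 array 1 to 0.18 without KLF7 array 3.

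Csf1r, the receptor for the macrophage growth factors CSF1 and IL-34, had log2 intensities of 8.51, 7.64, 7.06 and 8.55 on KLF7 arrays 1 to 4 and 8.04, 7.24, 6.70 and 8.34 on control arrays 1 to 4. It was the fourth member in which the arrays numbered 1 and 4 all lay above the others, the lowest of them at 8.04 and the highest of the others at 7.64. With KLF7 its mean was 1.29-fold higher, a difference of 0.36 (SE 0.42, 95% interval -0.56 to 1.29, adjusted p 0.927 in limma). Without control array 3 the difference was 0.07 and without KLF7 array 3 it was 0.66.

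Related genes and cell markers also differed between array numbers, and their part in these values was not tested. The mean of 19 tissue macrophage genes kept the order of Mrc1 by a narrow margin. It lay at 5.92 to 6.29 on the arrays numbered 1 and 4 and at 5.74 to 5.87 on the others. Single genes of that list, picked later, did not all share the order. Hmox1 did, at 9.73 to 10.26 on the arrays numbered 1 and 4 and 8.59 to 8.85 on the others. Vcam1 (4.32 for KLF7 and 5.29 for control) and Siglec1 (5.15 and 4.94) were lowest on the arrays numbered 4. The mean of 27 other scavenger receptors and lectins kept the order of Mrc1 too (6.00 to 6.58 against 5.63 to 5.92). Monocyte, lysosome and dendritic cell lists kept it within each group. Mast cell and neutrophil lists had orders of their own. The mean log2 level of 9 mast cell and basophil genes was lowest on the arrays numbered 4 (6.17 for KLF7 and 5.94 for control), between 8.33 and 8.41 on those numbered 1, and 9.11 to 9.56 on those numbered 2 and 3. The mean of 15 neutrophil genes was 9.03 on KLF7 array 3 and 8.81 on control array 3, against 6.94 to 7.95 on the other 6 arrays. Msr1, a scavenger receptor of macrophages that was named after its values were seen, followed Mrc1. It lay at 7.63 and 7.45 on KLF7 arrays 1 and 4, 7.78 and 6.66 on control arrays 1 and 4, and 4.81 to 5.69 on the rest. Its groups differed by 0.07 (SE 0.69).

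**Figure D2:**
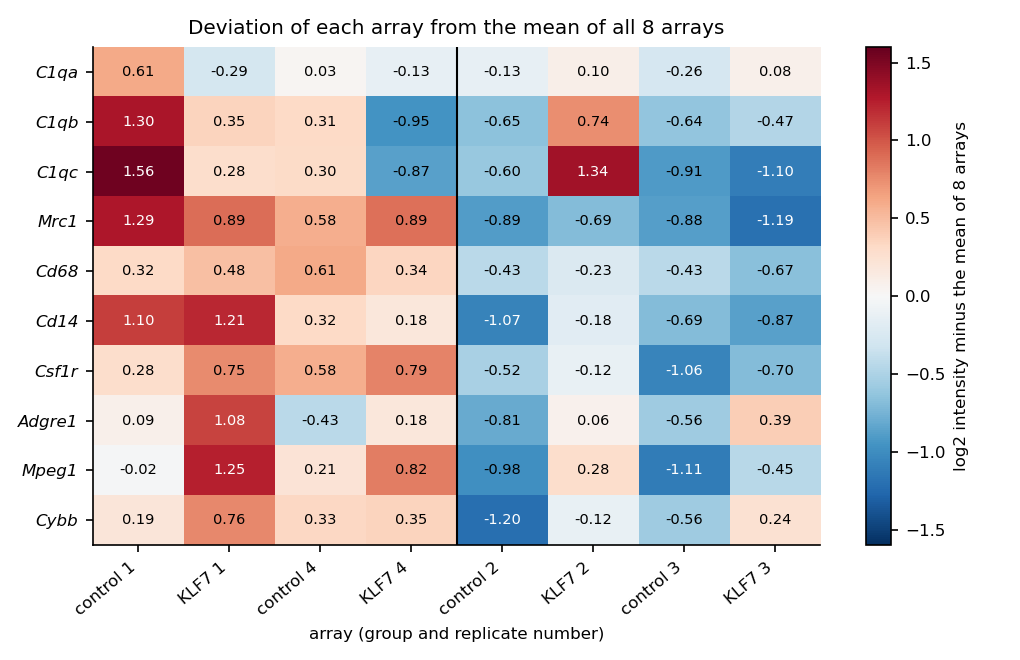
Deviation of each gene's log2 intensity on an array from its mean over all 8 arrays, red above and blue below, with the arrays numbered 1 and 4 left of the line and those numbered 2 and 3 right of it. Mrc1, Cd68, Cd14 and Csf1r are above their mean on all 4 arrays left of the line and below it on all 4 right of it; C1qb and C1qc depart from that order on KLF7 arrays 2 and 4.

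Adgre1, an adhesion G protein-coupled receptor used as a surface marker of mouse macrophages, had the smallest p of the 10. Its log2 intensities were 8.99, 7.97, 8.29 and 8.08 on KLF7 arrays 1 to 4 and 7.99, 7.09, 7.34 and 7.47 on control arrays 1 to 4. The groups overlapped in 1 of 16 pairs of arrays, since control array 1 lay just above KLF7 array 2. With KLF7 the mean was 1.81-fold higher, a difference of 0.86 (SE 0.27, 95% interval 0.27 to 1.45). The unadjusted p was 0.0086 in limma and 0.0571 in an exact two-sided permutation test whose smallest possible p is 0.0286, and the adjusted p over all genes was 0.410. The difference lay between 0.64 (without KLF7 array 1) and 1.03 (without control array 1) when arrays were left out in turn.

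Mpeg1, which encodes a pore-forming protein of phagocyte vesicles also called perforin-2, had log2 intensities of 8.86, 7.89, 7.16 and 8.43 on the KLF7 arrays and 7.58, 6.63, 6.50 and 7.82 on the controls. Within each group the arrays numbered 1 and 4 were again the higher ones, and KLF7 array 3 fell below control arrays 1 and 4. With KLF7 the mean was 1.93-fold higher, a difference of 0.95 (SE 0.40, 95% interval 0.07 to 1.84). The unadjusted p was 0.0376 in limma and 0.114 in the exact two-sided permutation test, with an adjusted p of 0.568. Its unadjusted p was 0.05 or more without KLF7 array 1, 2 or 4 or control array 2 or 3, in which settings Adgre1 was the 1 member under 0.05. The difference lay between 0.69 (without KLF7 array 1) and 1.26 (without KLF7 array 3).

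Cybb, the catalytic subunit of the phagocyte NADPH oxidase, had log2 intensities of 9.45, 8.57, 8.93 and 9.04 on the KLF7 arrays and 8.87, 7.48, 8.12 and 9.02 on the controls. Within each group the arrays numbered 1 and 4 were the higher ones, as for Mpeg1. Control arrays 2 and 3 were the 2 lowest of the 8, and control arrays 1 and 4 lay among the KLF7 arrays. With KLF7 the mean was 1.54-fold higher, a difference of 0.62 (SE 0.34, 95% interval -0.12 to 1.37, adjusted p 0.701 in limma). The difference was 0.32 without control array 2 and 0.84 without control array 4, in which setting Cybb too had an unadjusted p under 0.05. Whether Adgre1, Mpeg1 and Cybb differed between groups by more than the other 7 members was not tested.

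**Figure D3:**
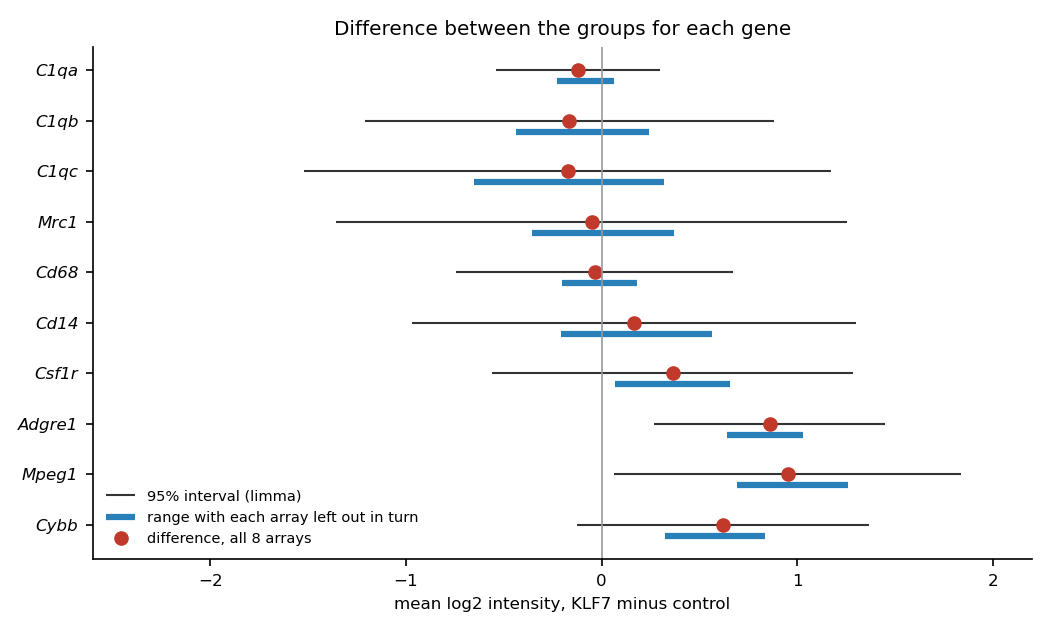
Difference in mean log2 intensity, KLF7 minus control, for each gene: the red point is the value over all 8 arrays, the black line its 95% interval in limma and the blue bar the range on leaving out single arrays. The intervals of Adgre1 (0.27 to 1.45) and Mpeg1 (0.07 to 1.84) lie above 0, without adjustment for the number of genes, and the other 8 include it.

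Partner genes of each member were then counted, from lists that were written with earlier results of these data known. No partner or marker gene had an adjusted p under 0.05 over all genes in the fit on group alone. Beside the counts below, 8.21% of all genes had an unadjusted p under 0.05 (4.65% higher, 3.56% lower). Groups did not overlap for 5.22% of all genes, and genes named for a small p are apt to be among these. The lists share genes: 12 stand in several, Itgax and Axl among them, and count in each. Of 28 other complement genes measured, 5 with a higher and 1 with a lower mean after KLF7 had an unadjusted p under 0.05, and the median difference was 0.08. C3ar1, the receptor of the complement fragment C3a, had means of 8.77 ± 0.27 and 7.74 ± 0.62 (SD, n = 4 each), a difference of 1.03 (SE 0.30, adjusted p 0.381 in limma). Properdin (Cfp), which stabilises the alternative pathway's convertase, differed by 0.99 (SE 0.29), and Itgb2, the common chain of the complement receptors CR3 and CR4, by 0.71 (SE 0.21). The lower gene, singled out once its values were seen, was C1qbp, a mitochondrial protein also known to bind C1q, at -0.86 (SE 0.32).

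Of 27 other scavenger receptors and lectins, 4 were at an unadjusted p under 0.05, each higher with KLF7, and the median was 0.13. They included Lgals3, a secreted galactose-binding lectin (0.84, SE 0.28), Cxcl16, a membrane chemokine that takes up oxidised lipoprotein (0.95, SE 0.34), and Scarb2, a lysosomal membrane protein (0.50, SE 0.19). The count was 2 without KLF7 array 4, without control array 3 or without both arrays numbered 4, and 1 without both arrays numbered 2. Without KLF7 array 1 Cxcl16 was at 0.63.

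Of 14 oxidase partners of Cybb measured, 0 had an unadjusted p under 0.05 in limma. Higher means with KLF7 were seen for 10 and lower ones for 4, and the median was 0.17. Cyba, the membrane partner of the catalytic subunit, was at 0.60 (SE 0.35). Of the cytosolic subunits, Ncf4 was at 0.51 (SE 0.24) and Ncf1, named after its values were seen, at 0.30 (SE 0.19). Hvcn1, the proton channel that balances the oxidase's charge, was at 0.35 (SE 0.18). Single arrays moved these values, with Cyba at 0.34 without KLF7 array 4 and 0.89 without KLF7 array 1, and Hvcn1 at 0.22 without KLF7 array 4. The count was 3 higher and 1 lower without KLF7 array 1, 2 without KLF7 array 2 and 1 without control array 2.

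Around the CSF1 receptor, 20 ligands, related receptors, regulators and signalling genes were measured. At an unadjusted p under 0.05 stood 5 that were higher and 1 that was lower with KLF7, and the median over the list was 0.11. Fgr, a Src family kinase of myeloid cells, had 7.36 ± 0.38 against 6.49 ± 0.21 (SD, n = 4 each; difference 0.87, SE 0.21, adjusted p 0.323 in limma). Tyrobp, the signalling adaptor DAP12, differed by 0.76 (SE 0.20). Csf3r, the granulocyte growth factor's receptor, had the opposite sign at -1.13 (SE 0.30, 2.19-fold lower), and for these 3 genes the groups did not overlap. The list's transcription factor genes, named after their values were seen, went both ways. Irf5 (0.93, SE 0.29), Spi1, which encodes PU.1 (0.33, SE 0.24), and Irf8 (0.29, SE 0.19) were higher. Cebpa (-0.59, SE 0.29), Cebpb (-0.29, SE 0.22), Klf4 (-0.17, SE 0.21) and Nr1h3 (-0.17, SE 0.11) were lower. Maf, Pparg, Egr1 and Egr2 lay between 0.04 and 0.08.

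Of 14 partners of CD14 in sensing lipopolysaccharide, 2 had an unadjusted p under 0.05 with a higher mean and 1 with a lower mean, and the median difference was 0.07. Ly96, which encodes MD-2, was at 0.94 (SE 0.23) and the adaptor gene Myd88 at 0.66 (SE 0.28), while the kinase gene Irak1 was at -0.49 (SE 0.15). Ly96 was dim, with log2 levels of 4.41 to 5.41 on the KLF7 arrays and 3.62 to 4.45 on the controls. Its difference was 0.55 when 16 was added to every intensity before log2. Myd88 was at 0.39 without KLF7 array 4. The higher count was 1 without KLF7 array 2 or 4 or control array 2 or 3. TLR4 itself differed by 0.04 (SE 0.23), and its gene, Tlr4, was named after its values were seen.

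Lysosome genes had higher means with KLF7 in 21 of 23 cases, their median was 0.49, and 7, each of them higher with KLF7, were at an unadjusted p under 0.05. Grn, the precursor of the granulins, had 11.05 ± 0.16 against 10.11 ± 0.19 (SD, n = 4 each; difference 0.94, SE 0.17, adjusted p 0.279 in limma). Ctsd and Ctsh, the proteases cathepsin D and cathepsin H, differed by 0.73 (SE 0.17) and 1.04 (SE 0.25), and for these 3 genes the groups did not overlap. The count was 4 without KLF7 array 4 or any of control arrays 1, 2 and 3, and without both arrays numbered 2. The median was 0.29 without KLF7 array 4 and 0.32 without control array 2. Cd68, itself a lysosomal protein, differed by -0.03, as given above.

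Markers that tell apart the myeloid cells sharing these genes gave unequal counts, and their part in the differences of Adgre1, Mpeg1 and Cybb was not tested. Of 16 dendritic cell genes, 13 were higher and 3 lower with KLF7, and 8 were at an unadjusted p under 0.05, each higher with KLF7, and the list had a median of 0.57 and mean levels of 7.20 to 7.94 on the KLF7 arrays and 6.34 to 7.38 on the controls. Ccr7 (1.28, SE 0.30), Cd83 (1.22, SE 0.31) and Itgax (1.29, SE 0.38) had the smallest p, and the class II genes H2-Aa (1.41) and H2-Eb1 (1.42), named after their values were seen, had larger differences. The lower genes were Clec9a (-0.19), Cd209a (-0.12) and Siglech (-0.12), and the lineage genes Zbtb46 and Flt3 were at 0.12 and 0.08; these too were picked later. The count of 8 was 5 without KLF7 array 1 or control array 3. Of 13 monocyte genes, 10 had a higher mean, 2 of them (Ccr2 at 0.62, SE 0.18, and Treml4 at 0.47, SE 0.20) at an unadjusted p under 0.05, and Ms4a4c was at 1.61 (SE 0.73). Their median was 0.44, and their mean levels ran from 7.01 to 7.64 on the KLF7 arrays and from 6.66 to 7.07 on the controls. The count of monocyte genes was 1 without KLF7 array 1 or control array 1 or 2, 4 without control array 4 and 5 without KLF7 array 3.

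Of 19 tissue macrophage genes, 11 were higher and 8 lower with KLF7, and the median was 0.11. Axl, a receptor for dying cells, was the 1 gene at an unadjusted p under 0.05 (0.71, SE 0.32), and was at 0.42 without control array 3. That count was 0 without KLF7 array 1, 2 or 4 or control array 3, 3 (and 1 lower) without KLF7 array 3, and 2 (and 2 lower) without control array 4. The median was -0.01 without KLF7 array 1. The list's mean levels lay between 5.84 and 6.29 on the KLF7 arrays and between 5.74 and 6.28 on the controls. The macrophage genes Timd4 and Cd163, named after their values were seen, ran from 4.74 to 5.16 and from 4.29 to 4.80 over all 8 arrays. Others of the list, also picked later, ranged more widely, with Mertk at 4.14 to 6.90, Vcam1 at 4.32 to 6.93 and Hmox1 at 8.59 to 10.26. Gpnmb, a glycoprotein of macrophages and dendritic cells, was at 0.83 (SE 0.44), and Cd5l, a secreted macrophage protein, at -0.28 (SE 0.15). Cd5l was dim, with log2 levels of 2.95 to 3.68 over the 8 arrays, and was at -0.11 when 16 was added to every intensity.

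**Figure D4:**
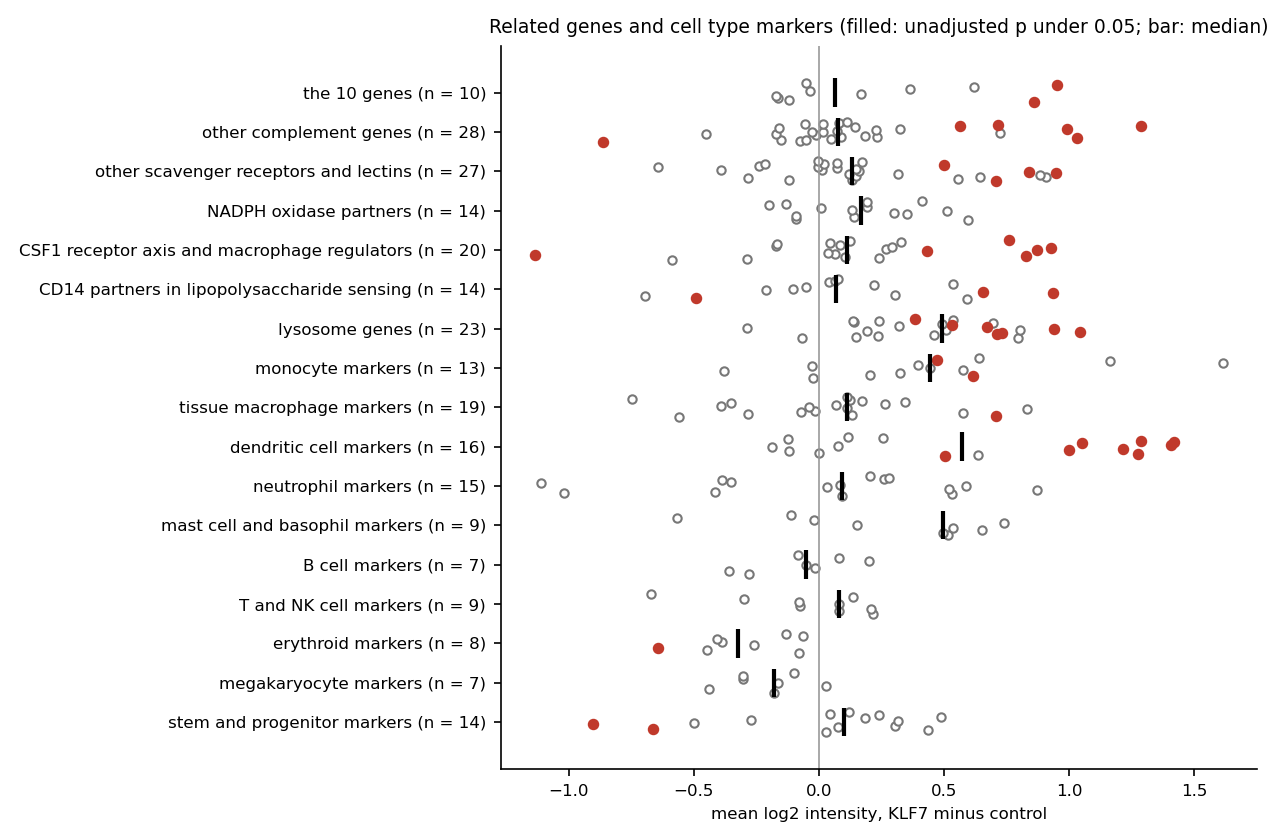
Difference in mean log2 intensity, KLF7 minus control, for each gene of the 10 and of 16 related lists; filled points have an unadjusted p under 0.05 in limma and the bar marks the list's median. The medians of the lysosome (0.49), monocyte (0.44) and dendritic cell (0.57) lists lie farther right than that of the 10 genes (0.07), and 2 of the 10 are filled.

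Genes whose levels ran most like the members over the 8 arrays were picked by Pearson's r, which is given as a description. For the mean of the 3 C1q chains they were Adgrd2-ps (0.961), Kcnj4 (0.947), Trpa1 (0.936), Gas2 (0.933), Ms4a10 (0.923) and Lix1 (0.911). For the mean of the 10 members, each scaled to the same spread, they were Slc37a2, a sugar phosphate transporter (0.979), Faiml (0.959), Pid1 (0.956), Hbegf, a growth factor (0.951), Olfr1509 (0.945) and Tmprss11c (0.942). None of these 12 genes had an unadjusted p under 0.05 between the groups, and their differences lay between -0.10 (Trpa1) and 0.34 (Pid1). Mean log2 levels ran from 3.49 (Trpa1) to 5.51 (Gas2) in the first set and from 2.32 (Faiml) to 6.37 (Hbegf) in the second. Faiml, Tmprss11c (3.39), Trpa1, Olfr1509 (4.09) and Lix1 (4.34) lay below the lowest level of any member, 4.83 for Mrc1 on KLF7 array 3. At such levels r does not show that a gene is expressed. The arrays also share whatever sets them apart over all genes, so such a likeness is not particular to a pair of genes.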

How the data were processed

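The deposited values are probe set intensities on a linear scale, and the submitters' processing notes name RMA and the Affymetrix Expression Console as the authors' tools. The sources used here give no version, level of summary or genome build. RMA and the amplification of the RNA can compress differences of dim genes.

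Log2 was taken. Of 35554 probe sets, 21789 carried 1 gene symbol; the one of highest mean was kept for each of 19938 genes, and dim genes were kept. The 8 arrays went into a limma 3.58.1 fit under R 4.3.3 (lmFit, then eBayes with a trend on intensity; the sole term was the group), two-sided, with Benjamini-Hochberg adjustment over all genes and a threshold of 0.05. The code of the fit was checked on simulated data with independent noise for each gene and array. Those data held no pattern shared by arrays of the same number, so the check does not cover such a pattern. Single levels were also tested by exact permutation over the 70 ways to part 8 arrays into 4 and 4.

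The members and the 16 related lists (262 places written outside the members, 243 measured) were chosen with earlier results of these data known. Named were the members, Klf7 and Kit, the 3 genes of smallest p in most lists, and the 6 genes most like each of the 2 mean patterns. For the mast cell and basophil, B cell, and T and NK cell lists no gene is named. Any other gene is marked in the text as picked later. Alternatives left out arrays, used the replicate number as a block, and changed the normalization, weights, prior, filter, probe set rule and offset. Promoters came from RefSeq (GRCm38.p6). Figures were drawn with matplotlib 3.10.9.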

Additional observations from a re-analysis of the deposited data

How the results depend on the processing

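The count of 0 genes past the adjusted threshold ran from 0 to 1 on leaving out single arrays (1 without KLF7 array 3 or control array 4), and members called stayed at 0 in all 20 refitted settings. The 2 members at an unadjusted p under 0.05 were 1 to 3 when each array was left out and 1 without both arrays numbered 2. No scaling moved the median of all genes by as much as 0.1 log2. The filter on dim genes left 9 of the 10 members (not C1qa).

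With the replicate number as a block, 90 genes passed (75 higher, 15 lower), none of them a member, and 4 members had an unadjusted p under 0.05: Adgre1 (limma adjusted p 0.0563), Mpeg1 (0.0584), Cybb (0.204) and Csf1r (0.332). For these 4 each KLF7 array lay above the control array of the same number. The differences were 0.61 to 1.00 for Adgre1, 0.60 to 1.27 for Mpeg1, 0.02 to 1.08 for Cybb and 0.22 to 0.48 for Csf1r. Every other member had differences of both signs. Same-numbered arrays deviated from their group means together at 0.350, -0.127, 0.362 and 0.699 (numbers 1 to 4), and 1, 3 and 4 correlated best with their own partner while 2 did not, so pairing is not taken as given, and whether the number marks a batch is not known. Over the lists the block gave adjusted calls for 2 complement, 1 CSF1 receptor axis, 1 CD14 partner, 1 lysosome, 2 monocyte and 2 dendritic cell genes.

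Directions reversed for 6 members, none of them called, and the cause was not tested. Leaving out each array gave -0.23 to 0.061 for C1qa, -0.44 to 0.24 for C1qb, -0.65 to 0.32 for C1qc, -0.36 to 0.37 for Mrc1, -0.20 to 0.18 for Cd68 and -0.21 to 0.56 for Cd14. Without both arrays numbered 4, C1qb was 0.20, C1qc 0.16 and Cd68 0.043; with array weights, C1qb was 0.20 and C1qc 0.35; without both arrays numbered 2, Cd14 was -0.075. Csf1r, Adgre1, Mpeg1 and Cybb kept their sign in every setting run. The adjusted p over these settings ran from 0.0563 to 0.823 for Adgre1 and from 0.0584 to 0.904 for Mpeg1.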

Other observations

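Markers of the remaining blood lineages in the same cells held no gene past the test over all genes. All 8 erythroid genes measured had a lower mean on the KLF7 arrays (median difference -0.32), with the smallest p for the carbonic anhydrase gene Car2 (-0.64, SE 0.24), the erythropoietin receptor gene Epor (-0.26, SE 0.14) and the erythroid factor Klf1 (-0.41, SE 0.25), and Car2 was the 1 gene at an unadjusted p under 0.05. Car1 (-0.45) and Ermap (-0.39), picked later, had larger differences than Epor. The median was -0.09 without control array 3, and the count was 0 without KLF7 array 1 or control array 3 and 2 without control array 4. Of 7 megakaryocyte genes 6 had a lower mean (median -0.18), with Tubb1 at -0.30 (SE 0.24; -0.15 without control array 4), and Gp9 (-0.44, SE 0.52) and Ppbp (-0.30, SE 0.66) both positive without control array 4 (0.04 and 0.25). The median of that list was 0.15 without control array 4, -0.52 without KLF7 array 4 and -0.0031 without KLF7 array 1, and 1 gene was lower at an unadjusted p under 0.05 without control array 2. Of 14 stem and progenitor genes, 10 had a higher and 4 a lower mean with KLF7 (median 0.10). The 2 at an unadjusted p under 0.05 were both lower, the transcription factor genes Hlf (-0.90, SE 0.23) and Erg (-0.66, SE 0.25). Erg was at -0.40 without KLF7 array 1. Procr was at 0.49 (SE 0.23), and at 0.30 without KLF7 array 1. The lower count was 3 without KLF7 array 4 or control array 1 and 1 without control array 4.

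The 7 B cell genes (median -0.05) and the 9 T and NK cell genes (median 0.08) held no gene at an unadjusted p under 0.05, nor did the 15 neutrophil genes (median 0.09) and the 9 mast cell and basophil genes (median 0.50). Single arrays changed this: without control array 4 the mast cell median was -0.59 with 1 gene lower at that level, and without KLF7 array 4 it was 0.91. The neutrophil median ran from -0.26 without KLF7 array 3 to 0.27 without control array 3, with 3 genes lower without control array 4 and 1 higher without KLF7 array 2 or control array 3. The B cell list had 1 gene lower without KLF7 array 1 and 1 higher without KLF7 array 4, and the T and NK cell list 1 higher without KLF7 array 4 or control array 3. Of the 15 neutrophil genes, 10 had a higher and 5 a lower mean with KLF7, and Cxcr2, Mpo and Retnlg had the smallest p. The neutrophil granule gene Mpo was at -1.11 (SE 0.75), and between -1.71 without control array 4 and -0.54 without KLF7 array 4. Cxcr2 was at 0.53 and Retnlg at 0.26, or 0.22 and 0.02 without KLF7 array 3. Mean levels of the B cell list lay between 4.81 and 5.14 on the 8 arrays and those of the T and NK cell list between 4.52 and 4.93.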
